A study of Mus musculus with 34 samples.

Results

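Klf2, Klf4, Klf6, Nr4a1, Nr4a2, Nr4a3, Atf3, Btg2, Tnfaip3 and Nfkbia are genes of rapid feedback: each can be switched on within minutes to hours of a stimulus, and each product then limits or redirects the response. They were chosen by name, and all 10 were found among the 25853 gene rows of the 34 tables, of which 20213 were not predicted genes named Gm plus a number. Their levels were read in mast cells (MCs) and in Myh11-GFP cells of mouse ear skin, in single cells sequenced by mCEL-Seq2. The WT MCs came from 3 mice of genotype Mcpt5-cre+/- Tln1+/+ with the R26 LSL:YFP reporter. The Tln1∆MC MCs came from 3 littermates of genotype Mcpt5-cre+/- Tln1 fl/fl R26 LSL:YFP, in which Cre under the Mcpt5 promoter, active in connective tissue MCs, deletes talin-1, the protein that couples integrins to actin. Both genotypes thus carried Cre and the reporter, all were males of 7 weeks, and CD45+Lin-YFP+ cells were sorted after enzymatic digestion of the tissue at 37 °C. The second population, Myh11-GFP cells, was sorted as CD45-GFP+ from Myh11 GFP/+ ears. The paper aimed this sort at vascular smooth muscle cells and states that some pericytes and a small share of fibroblasts came along. The sorted cells filled 4 libraries. How many mice gave them is not stated, so they count as 1 sample without replicate error. Myh11-GFP cells and MCs also differ in the sort, the mouse line and its background.

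KLF factors are zinc-finger regulators, of which Klf2 and Klf4 restrain inflammatory genes in endothelium and myeloid cells. Nr4a1, Nr4a2 and Nr4a3 encode orphan nuclear receptors that need no known ligand and are governed by how much of them is made. Nfkbia encodes IκBα, which holds NF-κB in the cytoplasm, and Tnfaip3 encodes A20, a ubiquitin-editing enzyme that ends NF-κB signalling; both are themselves NF-κB targets. Atf3 is a stress-induced repressor of the ATF/CREB family, and Btg2 is an antiproliferative gene that promotes mRNA deadenylation. Fos, the immediate early partner of Jun in the AP-1 complex, served as the reference for recent activation of a cell. Genes of this kind are also known to be induced while tissue is digested.

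Short stretches upstream of the transcription start are shown for some of the members in which a motif known from such promoters was found. Klf4 and Nr4a2 also held such a motif, without a stretch shown here. Whether the motifs go with how the members followed Fos below was not tested. The sequences are RefSeq promoter windows of GRCm38.p6, from 250 bases before to 50 after the start, and all 10 members matched. Capitals mark the matched letters, on either strand, and positions are written as chr12:55492659-55492684.
Nfkbia, NF-kB motif, minus strand of chr12:55492659-55492684: actggcttGGAAATTCCCcgcgcctg
Tnfaip3, NF-kB motif, minus strand of chr10:19015411-19015430: tttccatcGGAAATCCCCct
Klf2, MEF2 motif, plus strand of chr8:72318936-72318961: taccgcggCTAAATTTAGgctgagcc
Btg2, CRE, minus strand of chr1:134079306-134079329: cccaataaTGACGTCAgtgagcga
Atf3, CRE half-site, minus strand of chr1:191183334-191183348: tagcattaCGTCAgc
Nr4a1, CRE half-site, plus strand of chr15:101266798-101266818: tctccatgCGTCAcggagcgc
Nr4a3, 2 CRE half-sites, plus strand of chr4:48045084-48045112: tcccatgtCGTCAcatTGACGtctcgcat
The half-site TGACG, which the whole cAMP response element (CRE) TGACGTCA contains, was found in the windows of 8 members and in 20.8% of all 32851 promoter windows. The whole element stood in Btg2 alone among the members and in 1.79% of all windows. The NF-kB motif stood in Nfkbia, Tnfaip3 and Nr4a1 and in 4.51% of all windows, and the MEF2 motif in Klf2 and Atf3 and in 0.557%. The AP-1 motif TGANTCA was matched in Tnfaip3 and in 7.81% of all windows, whereas the CArG box (1.63% of all windows) and the Nr4a-binding letters AAAGGTCA (1.51%) were matched in no member. A match of letters is a description and not a binding site.

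Cells with more than 1000 transcripts were kept, which left 2477 MCs in 30 libraries and 330 Myh11-GFP cells. The paper reports fewer MCs past the same limit, for a reason that was not tested. It also excluded a small cluster with macrophage features, and no such cells were removed here. WT mice 1, 2 and 3 had 338, 294 and 272 MCs, and Tln1∆MC mice 1, 2 and 3 had 285, 354 and 934. Levels are transcripts per 10000 outside Gm genes, since Gm genes took from 14.2% to 58.01% of the transcripts of a mouse. A transcript is an RNA molecule counted by its molecular identifier (UMI) at the 3′ end, so that levels of different genes need no correction for length. The defining MC markers were present in every mouse, with a summed level of 10 genes between 635 and 868.1 against 0.424 in Myh11-GFP cells, and Myh11 itself had a level of 17.9 in Myh11-GFP cells and at most 0.0429 in an MC mouse. The level of Tln1 was 4.51, 5.92 and 6.71 in WT mice against 5.57, 4.33 and 3.63 in Tln1∆MC, with overlap between the groups. A 3′ count need not lose the signal of a gene from which inner exons were removed, so this value does not check the genotype. In 2 of the 30 MC libraries most cells carried both macrophage and keratinocyte transcripts, namely all cells of library 3 of WT mouse 2 and 70.97% of those of library 8 of Tln1∆MC mouse 3, against at most 20.8% in the other 28. Single wells of very high content, 5 with more than 30000 transcripts outside Gm genes, also occurred. The libraries drew on 2 sets of 96 barcodes for their wells. Libraries of the same set share barcodes, so a shared barcode does not mark a shared cell.

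MCs carried 8 of the 10 genes in quantity. Klf6 had the highest mean level, at 21.5 ± 3.84 (SD, n = 6 mice), ahead of Nr4a1 at 17.7 ± 3.22, Nfkbia at 17.2 ± 2.82, Nr4a3 at 12.8 ± 3.70 and Tnfaip3 at 11.9 ± 3.70. Lower levels were found for Klf4 at 7.95 ± 1.11, Nr4a2 at 4.89 ± 1.44 and Klf2 at 3.43 ± 0.866. Atf3 had 1.26 ± 0.624, and Btg2 was lowest with 0.263 ± 0.175. Each gene's range over the mice overlapped that of its neighbour in this order, except that Atf3 lay above Btg2 without overlap. Tnfaip3 lay above Klf4 in all 6 mice, whereas Nr4a1 lay above Nfkbia in 3 of 6. Summed over all members, the level ran from 82.3 in WT mouse 2 to 114.8 in WT mouse 1, and was 86.9 in Myh11-GFP cells.

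**Figure D1:**
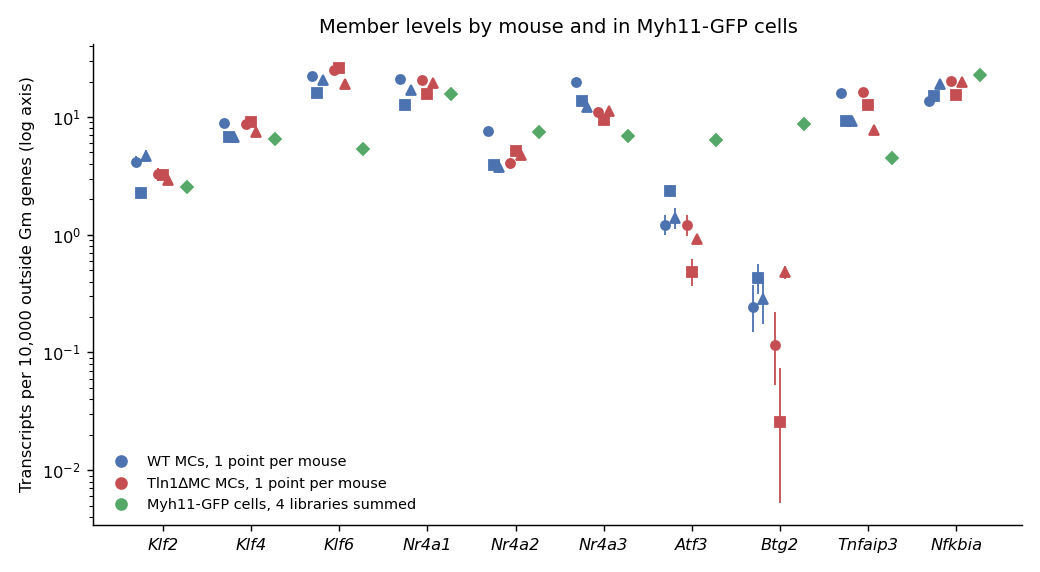
Levels of the 10 genes as transcripts per 10000 outside Gm genes on a log axis, with 1 point per MC mouse (circle, square and triangle for mice 1, 2 and 3) and 1 for the 4 summed Myh11-GFP libraries; bars are exact 95% Poisson intervals that cover counting error only. The MC points of Atf3 and Btg2 lie between 0.0255 and 2.36, below the Myh11-GFP points of 6.43 and 8.78.

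How many cells held a gene was compared after each cell was thinned to 1000 UMIs outside Gm genes, which left out 282 shallower MCs and 23 Myh11-GFP cells. Klf6 was found in 67.2% to 73.2% of the thinned MCs of a mouse and Nfkbia in 60.1% to 80.7%. Nr4a1 was found in 53.6% to 73.2%, Nr4a3 in 44.5% to 65.6% and Tnfaip3 in 44.9% to 55.4%. By contrast, Klf2 was found in 13.7% to 23.5% of the cells, Atf3 in 2.80% to 11.1% and Btg2 in 0.312% to 3.05%. Without thinning, 98.2% of the MCs of Tln1∆MC mouse 3, the deepest, and 65.4% of those of WT mouse 1 held Nfkbia. The median MC held 4 of the 10 genes in every mouse, and at most 3.12% of the MCs of a mouse held none. Of the Myh11-GFP cells, 15.3% held none (exact binomial interval 11.5% to 19.8%). Barcodes not in use give the level of stray transcripts: an unused barcode of an MC library held 0.713 member transcripts on average against 38.5 in a kept MC, and for Btg2 these numbers were 0.00557 and 0.143.

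The comparison of Tln1∆MC with WT MCs asks whether loss of integrin coupling goes with another level of these genes. None of the 10 was called at an adjusted p under 0.05 in limma, nor was any of the 8601 genes tested (0%), and 502 genes had an unadjusted p under 0.05. Klf4, Klf6, Nr4a1, Tnfaip3 and Nfkbia had positive log2 fold changes between 0.11 and 0.28, with the smallest adjusted p (limma) at 0.871. Klf6 had levels of 22.4, 16.0 and 20.8 in WT mice against 24.98, 26.3 and 18.9 in Tln1∆MC, where mice 1 and 2 lay highest but mouse 3 lay below 2 WT mice. For Nfkbia the levels were 13.6, 15.2 and 19.1 in WT mice and 20.1, 15.4 and 20.01 in Tln1∆MC mice, again with overlap. The 95% interval of the log2 fold change was −0.24 to 0.80 for Klf6 and −0.25 to 0.74 for Nfkbia, so that 3 against 3 mice leave room for a change in either direction.

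The other members spread as widely within a genotype as between them. Tnfaip3 had levels of 15.9, 9.16 and 9.34 in WT mice against 16.4, 12.7 and 7.69 in Tln1∆MC, and mouse 1 was the highest of each genotype. For Nr4a1 they were 20.9, 12.6 and 16.9 against 20.6, 15.7 and 19.4, for Klf2 4.18, 2.27 and 4.67 against 3.27, 3.25 and 2.93, and for Klf4 8.87, 6.73 and 6.70 against 8.81, 9.10 and 7.50. Nr4a2 was highest in WT mouse 1, at 7.63, and lay between 3.80 and 5.16 in the other 5 mice. Fos itself had 22.004, 9.67 and 15.6 in WT mice against 18.4, 20.6 and 23.01 in Tln1∆MC, and WT mouse 2 was lowest.

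Nr4a3 and Atf3 did not overlap between the genotypes in unscaled level and were lower in every Tln1∆MC mouse, 2 of 10 members against 6.31% of all genes tested. They were also the 2 members with an unadjusted p under 0.05 in limma, which 2.37% of genes had in this direction. Nr4a3 had levels of 19.8, 13.6 and 12.1 in WT mice and 11.0, 9.35 and 11.2 in Tln1∆MC mice. Every WT mouse lay above every Tln1∆MC mouse in level, with WT mouse 1 highest by a wide margin. The Poisson intervals of WT mouse 3 (11.3 to 12.96) and Tln1∆MC mouse 3 (10.9 to 11.5) overlapped. The share of thinned cells with Nr4a3 overlapped between the genotypes. It was 65.6%, 64.5% and 59.2% in WT mice and 52.5%, 44.5% and 60.8% in Tln1∆MC mice. The log2 fold change was −0.47 (SE 0.21) with an adjusted p of 0.836 in limma, and an exact two-sided permutation of the 6 mice gave p = 0.1, the smallest it can give. Stray transcripts on unused barcodes linked the libraries of mice in 2 sets, with Tln1∆MC mouse 3 in neither. The difference was negative in both, at −0.76 for Tln1∆MC mouse 1 against WT mouse 1 and −0.40 for Tln1∆MC mouse 2 against WT mice 2 and 3. Atf3 had 1.21, 2.36 and 1.37 in WT mice and 1.21, 0.484 and 0.923 in Tln1∆MC mice, a log2 fold change of −0.92 (SE 0.35, adjusted p = 0.769, limma). WT mouse 1 and Tln1∆MC mouse 1 were nearly level for Atf3. The within-set differences, on the scaled values used in limma, were 0.09 and −1.81. After that scaling Tln1∆MC mouse 1 thus lay above WT mouse 1, so the separation of Atf3 holds for the unscaled levels only.

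Much of the Atf3 and Btg2 in MC libraries came from a few wells. A single well of library 8 of Tln1∆MC mouse 3 held 399798 transcripts outside Gm genes, 13241 of them from keratinocyte markers, and 43.9% of that mouse's Atf3 and 68.6% of its Btg2. One well each of WT mouse 2 and WT mouse 3 held 45.7% and 25.0% of the Atf3 and 47.002% and 75.03% of the Btg2 of those mice. Without the 5 wells Atf3 was 1.21, 1.38 and 1.12 in WT mice and 1.21, 0.484 and 0.569 in Tln1∆MC, with overlap between the groups. With the 2 libraries that stood apart left out instead, Atf3 overlapped as well, and Btg2 came apart, at 0.219 to 0.286 in WT and 0.0255 to 0.162 in Tln1∆MC mice, where 6.56% of genes were lower in every Tln1∆MC mouse. That Btg2 separation rested on the well of WT mouse 3, since without the 5 wells that mouse had 0.0776 and the groups overlapped, with the libraries left out or kept. Nr4a3 without these wells kept its separation in level, with 12.8 as the lowest WT level and 11.9 as the highest in Tln1∆MC. Fibroblast markers also differed between the mice, from 21.1 to 82.8 in WT and from 0.991 to 10.7 in Tln1∆MC (summed level of 8 genes), while the defining T cell markers stayed at or below 0.601 in every mouse. The part of these other transcripts in the Nr4a3 and Atf3 values was not tested.

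**Figure D2:**
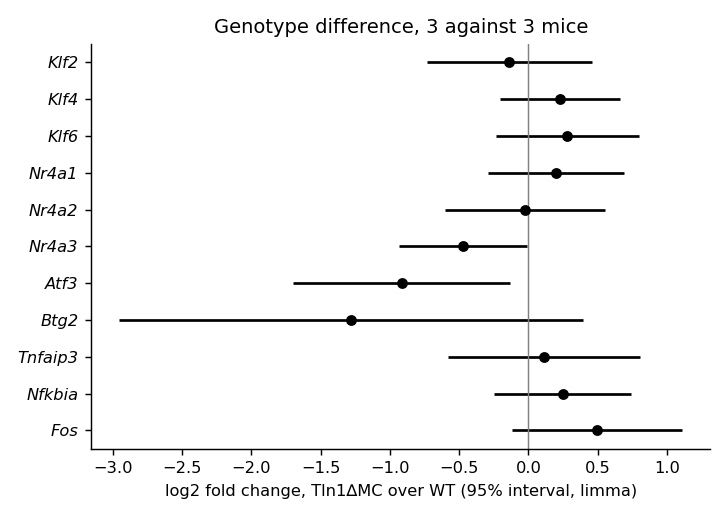
Log2 fold change of each member and of Fos, Tln1∆MC over WT, with its 95% interval from limma, from 3 against 3 mice. All intervals but those of Nr4a3 and Atf3 cross 0, and no adjusted p was below 0.769.

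Related genes from fixed lists gave no call either. Of 15 immediate early genes tested, Fos among them, 0 passed, with a median log2 fold change of 0.12. Jun, the AP-1 partner of Fos, had levels between 24.2 and 40.8 and Jund between 25.2 and 45.3. Among 25 genes of the NF-kB pathway 0 passed, with a median of −0.04, and Nfkbiz, an atypical IκB protein, had levels between 8.48 and 14.7, and Tax1bp1, a partner of A20, between 6.75 and 8.95. Of 8 other KLF genes 0 passed (median −0.11), with Klf13 between 1.61 and 2.29 and Klf10 between 0.594 and 1.54. Of 12 ATF and CREB genes 0 passed (median 0.03), and Atf4, the integrated stress response factor, had levels between 5.13 and 8.00, above Atf3 in all mice, and Crem between 1.93 and 4.41. Of 5 BTG and TOB genes 0 passed (median 0.06), with Btg1 between 2.45 and 5.19 and Tob2 between 6.42 and 8.69, both above Btg2. The members themselves had a median of 0.04 beside −0.002 for all genes tested.

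Cell by cell, the members separated into those that followed Fos in MCs and those that did not. Klf2, Klf4, Klf6 and Tnfaip3 had a Pearson correlation with Fos above 0.1 in all 6 mice, 4 of the 9 members found in at least 10% of MCs, against 0.659% of the 4706 genes found that often. Btg2 was found in 3.51% of MCs. These coefficients are descriptions across the cells of a mouse, which share libraries and depth. For Klf2, r was 0.398, 0.286 and 0.383 in WT mice and 0.542, 0.440 and 0.456 in Tln1∆MC mice. Klf6 ranged from 0.339 to 0.479, Tnfaip3 from 0.262 to 0.407 and Klf4 from 0.169 to 0.402. Nr4a1 was positive in all 6 mice (0.0743 to 0.340) and so was Nfkbia (0.0530 to 0.250). Nr4a3, in contrast, was below 0 in all 6 mice, with −0.00982, −0.156 and −0.133 in WT and −0.0204, −0.0755 and −0.212 in Tln1∆MC. Nr4a2 had r between −0.111 and 0.115, with 3 mice on either side of 0.

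Levels were also compared at equal depth. In thinned MCs with 3 or more Fos UMIs, the level of Klf2 was between 4.59 and 11.7 times that in cells with no Fos UMI, and it was higher in 6 of 6 mice. The median ratio over mice was 3.40 for Tnfaip3, 3.04 for Klf6 and 2.55 for Klf4, each higher in 6 of 6. Nr4a1 had a median ratio of 1.68 and Nfkbia one of 1.35, also higher in 6 of 6. Nr4a3 had a ratio below 1 in all 6 mice, from 0.570 to 0.861, so that its mean level was 14.6 in cells without Fos and 10.1 in cells with 3 or more Fos UMIs. Nr4a2 was higher in 2 of 6 mice. Atf3, at its low level, was higher in 6 of 6 mice with a median ratio of 3.97, and Btg2 was too sparse to read. The Atf3 ratios rested on 6 to 18 Atf3 UMIs per mouse in cells with 3 or more Fos UMIs. Poisson intervals of the compared Atf3 levels overlapped in WT mouse 1 and Tln1∆MC mice 2 and 3. Cells with 1 to 2 Fos UMIs had less Atf3 than cells with none in mice 1 and 2 of each genotype, and more in mouse 3 of each. After thinning, the Fos correlations of Klf2, Klf6 and Tnfaip3 lay above 0.1 in all 6 mice and those of Klf4 and Nr4a1 in 5 of 6. That of Nfkbia then ran from −0.068 to 0.194, above 0.1 in 2 of 6 mice against 4 before thinning. Nr4a3 was below 0 in all 6 mice after thinning too, from −0.189 to −0.0754.

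**Figure D3:**
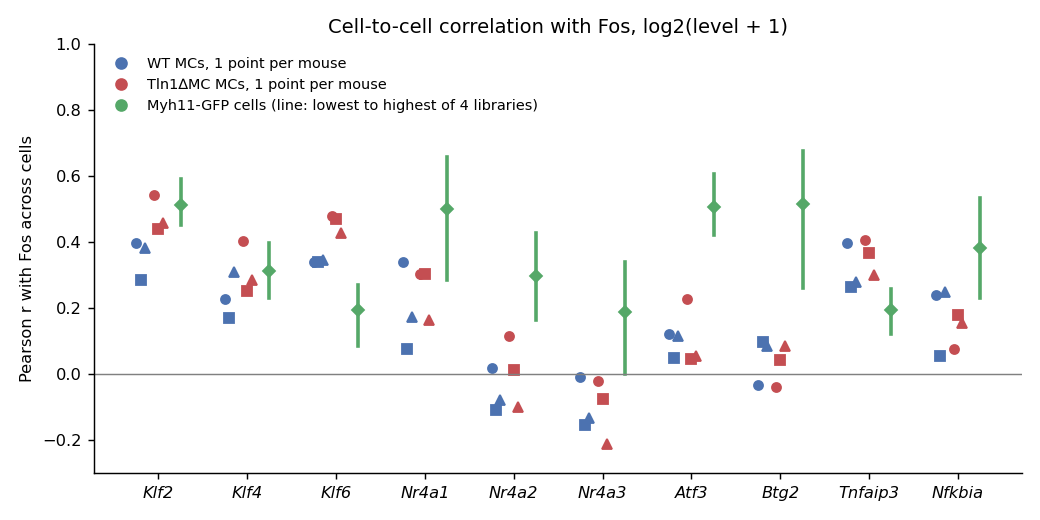
Pearson correlation of each member with Fos across cells on log2(level + 1), with 1 point per MC mouse (circle, square and triangle for mice 1, 2 and 3) and, for Myh11-GFP cells, the value over all cells with a line from the lowest to the highest of 4 libraries. Nr4a3 lies below 0 in all 6 mice, and Btg2 lies at 0.516 in Myh11-GFP cells against at most 0.0977 in an MC mouse.

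No difference in Fos correlation between the genotypes passed the test. The mean coefficient of Klf2 was 0.355 in WT and 0.480 in Tln1∆MC, and that of Klf6 was 0.341 and 0.460. For both, each Tln1∆MC mouse lay above each WT mouse, as for 3.7% of the 4706 genes. The exact two-sided permutation test gave p = 0.1, the smallest possible for 3 against 3, and 0.5 after Benjamini-Hochberg adjustment over the 10 members. For the other 8 members the exact permutation p was between 0.3 and 1.

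Among each other, 14 of the 45 pairs of members had r above 0.1 in all 6 mice, against 0.212% of all pairs of the 4706 genes and Fos. In thinned cells 5 pairs did, namely Klf2 with Klf6 and with Klf4, Klf6 with Tnfaip3 and with Nr4a1, and Nr4a1 with Tnfaip3. The values that follow are unthinned. The closest pair was Klf2 with Klf6 (mean r 0.394 over mice), followed by Nr4a1 with Tnfaip3 (0.381) and Klf6 with Tnfaip3 (0.341). Tnfaip3 and Nfkbia, the 2 NF-κB inhibitors, had a mean r of 0.319, between 0.249 and 0.438. Nr4a2 was most like Nr4a3 of all genes found in at least 10% of MCs, at a mean r of 0.239.

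The genes closest to each member over the 6 mice differed by branch. Klf2 was closest to Fos (mean r 0.417), then to the phosphatase gene Dusp1 (0.398) and to Klf6. Klf6 was closest to Jun (0.407), Fos (0.400) and Klf2, and Klf4 to Junb (0.307), Fosb (0.284) and Klf6 (0.282). Tnfaip3 was closest to Junb (0.456), Dusp1 (0.400) and Nr4a1. Nr4a1 was closest to Nfkbiz (0.498), then to Junb (0.458) and Egr1 (0.438). Nr4a3 was closest to Hdc, the histamine-forming enzyme (0.384), then to Plek (0.344) and Rabgef1 (0.334). Nr4a2 came next to Fdx1 (0.218) and the cytokine gene Il13 (0.211) after Nr4a3. For Nfkbia the closest were Tnfaip3, Junb (0.309) and Ifrd1 (0.293), and for Atf3 they were Zfp36 (0.144), Cox7a2l (0.128) and Dnajb4 (0.125), all weak. Btg2 was closest to the MHC class II genes H2-Aa, H2-Ab1 and H2-Eb1, with mean r from 0.116 to 0.124 and a lowest mouse of −0.0201. These 3 genes had a UMI in 14.2% to 18.7% of the MCs. H2-Aa and H2-Ab1 were also among the macrophage markers used here to describe libraries and wells. The part of macrophage transcripts in this likeness was not tested.

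Myh11-GFP cells held another mixture of the same genes. Btg2 had a level of 8.78 (95% Poisson interval 8.31 to 9.28) there, and from 6.91 to 9.88 in the 4 libraries, against 0.243, 0.428 and 0.286 in WT and 0.115, 0.0255 and 0.480 in Tln1∆MC MCs. It was 18.3 times the highest MC mouse. Atf3 had 6.43 (6.02 to 6.85), from 4.38 to 8.73 by library, 2.72 times the highest MC mouse. These were the 2 members at or above 2 times the highest MC mouse, a bound that 15.7% of 10637 genes passed. Without the libraries that stood apart the ratios were 30.7 for Btg2 and 4.68 for Atf3. On the other side, Klf6 was 5.35 (4.98 to 5.75) in Myh11-GFP cells, from 4.73 to 6.83 by library, and its lowest MC mouse lay 2.98 times higher, which 12.6% of genes matched at 2 times or more. Tnfaip3 had 4.48 and its lowest MC mouse lay 1.72 times higher, and Nr4a3 had 6.88 with a factor of 1.36. Klf4, at 6.48, lay just under the lowest MC mouse and Klf2, at 2.56, within their range. The levels of Nr4a1, at 15.6, and Nr4a2, at 7.51, fell within the range of the MC mice, while Nfkbia, at 22.8, lay above the highest MC mouse by a factor of 1.14. Nfkbia was thus the most abundant member in Myh11-GFP cells and Klf6 the most abundant in MCs, and Btg2, last of the 10 in MCs, ranked behind Nfkbia and Nr4a1 in Myh11-GFP cells. With 1 sample and no stated number of mice, no test of these differences was made.

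In Myh11-GFP cells the members had positive correlations with Fos over all cells. Btg2 had r = 0.516 with Fos over all cells, and between 0.261 and 0.675 in the 4 libraries. Klf2 had 0.512, Atf3 0.507 and Nr4a1 0.500, and all 3 were positive in every library. Nr4a3 had r = 0.188, from −0.000513 to 0.339 by library, and Nr4a2 had 0.296, from 0.162 to 0.426. Klf6 and Tnfaip3, which followed Fos closely in MCs, had 0.193 and 0.194. At equal depth the coefficients were lower, at 0.410 for Btg2, 0.406 for Atf3, 0.395 for Nr4a1, 0.313 for Klf2, 0.171 for Klf6 and 0.0811 for Tnfaip3. In thinned cells with 3 or more Fos UMIs Btg2 was at 17.4, against 4.60 in those without Fos, and Atf3 at 14.05 against 2.89. The difference between MCs and Myh11-GFP cells in these coefficients was not tested.

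Clustering of the 330 Myh11-GFP cells left out the members, other immediate early genes and mitochondrial and ribosomal protein genes. The clusters differed in the levels of the members. Genes that rise together with the members could still shape the clusters, so this difference is a description and not independent of how the clusters were made. Of 8 clusters, clusters 1, 2 and 3 held 244 cells, from all 4 libraries, and all 3 had the pericyte markers at summed levels between 153.87 and 163.95. They stay unnamed here because both smooth muscle and pericyte markers ran through them, the former not evenly. Summed smooth muscle markers were at 111.3 and 121.5 in clusters 1 and 2 and lower in cluster 3, at 40.9. Fibroblast markers were at 109.4 and 112.8 in clusters 1 and 3 and at 33.9 in cluster 2. Cluster 1, the largest, led by low-level genes that include Mir143hg and the smooth muscle actin gene Actg2, had Nfkbia at 4.13 and Nr4a1 at 3.30. Cluster 2 (81 cells), led by genes that include Avpr1a and Rasd1, had 34.99 and 27.4, and cluster 3 (54 cells), led by genes that include the chemokine genes Ccl11, Cxcl2 and Ccl2, had 38.1 and 17.7. By library, Nfkbia ran from 2.89 to 5.03 in cluster 1, from 27.6 to 40.4 in cluster 2 and from 35.4 to 40.5 in cluster 3, with no overlap of cluster 1 with the others. Btg2 was 1.44, 13.7 and 12.4 in the 3 clusters, and Atf3 was 1.12, 9.38 and 6.69. Nr4a2 was highest in cluster 2, at 15.7 against 0.978 and 5.31, and Tnfaip3 in cluster 3, at 12.01 against 0.171 and 3.93. Klf6 varied least, with 3.64, 4.70 and 5.99. The Btg2 level of cluster 1 still lay above every MC mouse, whereas its Atf3 level lay within their range. Median transcripts outside Gm genes were 3372 in cluster 1, 4523 in cluster 2 and 5624 in cluster 3, so depth moved with these differences, and its part was not tested. Clusters 4 to 8 held the other 86 cells, and clusters 4 and 5 also had high pericyte markers (145.5 and 144.5). Cluster 6 (10 cells) was led by Ttn and Tnnt2. Cluster 7 (8 cells) had fibroblast markers at 1550 and cluster 8 (6 cells) keratinocyte markers at 228. Cluster 7 held 143.6 of the 925.7 Atf3 and 137.4 of the 1265 Btg2 transcripts of Myh11-GFP cells. Klf6 was at 20.7 in cluster 8.

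**Figure D4:**
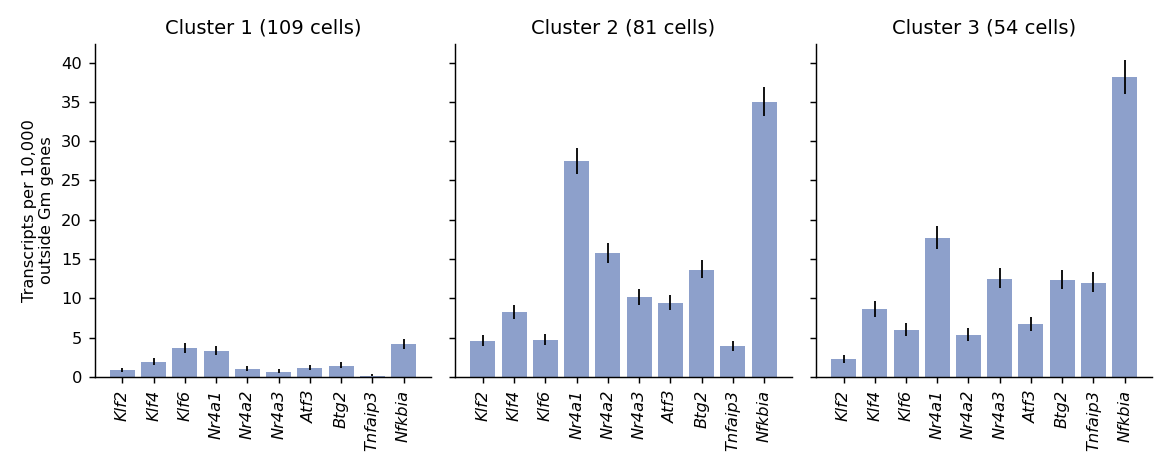
Levels of the 10 members, as transcripts per 10000 outside Gm genes, in the 3 largest clusters of Myh11-GFP cells; bars are summed levels and lines are exact 95% Poisson intervals of counting error. Nfkbia stands at 4.13 in cluster 1, 34.99 in cluster 2 and 38.1 in cluster 3.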

How the data were processed

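MCs of 6 mice (30 libraries) and Myh11-GFP cells (4 libraries) were analysed. The number after the genotype in the titles was taken as the mouse, which no source says in words. The authors used BWA 0.6.2-r126 against mm10 gene models, discarded multi-mapping reads and corrected UMI counts for identifier collisions with binomial statistics. What they deposited is this corrected count, without scaling or logs, and it was checked to return to whole UMIs for 4096 possible UMIs in all 34 tables. Their unit was read from the values and the paper, since an automatic check could not read the format. The filter on cells asked for over 1000 transcripts and no more than 2% Kcnq1ot1; the latter limit removed 0 cells. Doublets were excluded in the authors' sort and not called again.

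After summing by mouse, limma 3.58.1 (R 4.3.3) was fitted to genes reaching 10 transcripts in 3 or more mice, on log2 of transcripts per 1000000 outside Gm genes plus 1 after TMM scaling, with Benjamini-Hochberg adjustment. It took the place of a planned quasi-likelihood test on counts, which was left out because the check of units could not take the tables as counts. Recovered integer UMIs went into the limma fit as an alternative. P-values measure the spread between mice. Correlations used log2(level + 1) within a mouse, in Python 3.11.15 with scipy 1.17.1. Clusters came from scanpy 1.11.5 and leidenalg 0.10.2 (1000 variable genes, 15 components, 15 neighbours, resolution 0.5). Poisson and exact binomial 95% intervals cover counting error only.

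Named were the 10 members, Fos, the 3 genes most like each member by mean correlation, and the 2 genes of highest level in each list. The members and lists were chosen with earlier results of these data known. The sets of mice that share stray transcripts were read from unused barcodes. Gene positions not printed here are those of GENCODE M21.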

Additional observations from a re-analysis of the deposited data

Results flagged for a closer look

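Barcodes that were not in use held member transcripts, 2047 in the MC libraries over 2871 barcodes and 257 in the Myh11-GFP libraries over 376 barcodes, which lies outside the main measurement. Per barcode this was 0.713 in MC libraries against 38.5 in kept cells. In the MC libraries their level of Klf6 was 15.9 and of Nfkbia 13.2 transcripts per 10000, and that of Btg2 was 0.527, above every MC mouse. Of 20 sets of 4 Myh11-GFP library values examined (level and Fos correlation of each member), 0 had a library far from the others.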

How the results depend on the processing

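No member was called between the genotypes under any of 22 alternatives. Over all genes 0 calls became 1 without WT mouse 1, 12 without Tln1∆MC mouse 1 (lowest and highest over the left-out mice 0 and 12) and 4 with the set of mice sharing stray transcripts as a term, an alternative chosen after seeing the data. The log2 fold change of members and Fos kept its direction in 236 cases and turned in 6, for Nr4a2 (0.0576 as a mean over cells; −0.178 to 0.253 over the left-out mice, turned without WT mouse 1 or Tln1∆MC mouse 1), Tnfaip3 (−0.125 to 0.437, turned without WT mouse 2 or Tln1∆MC mouse 1) and Klf2 (−0.442 to 0.0866, turned without WT mouse 3), and the cause was not tested. Btg2 ranged from −2.28 to −0.38, Atf3 from −1.19 to −0.56 and Nr4a3 from −0.59 to −0.31 on the log2 scale. With the mouse number as a replicate block 0 genes were called. Same-numbered mice deviated with correlations of 0.163, −0.212 and −0.266, which have no common sign. So few values cannot settle whether the numbers pair the mice. The count of members that followed Fos in all mice was 3 to 5 around 4. The count of members in Myh11-GFP cells at or above 2 times the highest MC mouse was 2 throughout. 2 planned count tests were not run, although whole UMIs could be recovered; these were compared by limma, with 0 calls. Few transcripts limit Btg2, with 3 to 252 in an MC mouse.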
